A study of Rattus norvegicus with 6 samples.

Results

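Genes of oxidant defence were compared between H9c2 WT and Nono-KO cells in RNA-seq counts. The group was taken as 48 listed gene symbols covering the regulators Nfe2l2 and Keap1, the glutathione transferases, glutathione synthesis and recycling, glutathione peroxidases, quinone and heme enzymes, thioredoxins and peroxiredoxins, dismutases and catalase, ferritin, exporters and metallothioneins. Of the 48 symbols, 46 had a row among the 16319 genes of the count table, and 44 of them passed the filter on low counts, which kept 12028 genes. Gstk1 and Mt2A were not analysed here, because no row carries those symbols, and Gpx3 and Mt1 are given by their counts only.

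H9c2 is a myoblast line derived from embryonic rat heart. The Nono-KO cells were made by transfecting H9c2 with a PX459 plasmid carrying Cas9 and a guide against Nono, which encodes an RNA- and DNA-binding nuclear protein, followed by puromycin selection. WT cells were the wild type genotype, and pEGFP-N1 served as the control plasmid. Whether the sequenced WT cells had been transfected or selected is not clear from the labels, so effects of those steps and of the knockout cannot be told apart. Both genotypes were grown without further treatment in DMEM with fetal bovine serum, with 3 libraries each. The study calls the libraries biological replicates, but its scheme of the line shows 1 expanded knockout clone, so the p-values speak of library-to-library spread and leave variation among clones unmeasured.

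Library totals lay between 17612958 and 19253858 counts. Nono itself fell from 329 ± 31.3 CPM (counts scaled to a common library size, mean ± SD, n = 3) in WT to 5.56 ± 0.71 in Nono-KO, which matches the labels. WT replicate 1 stood apart from the other WT libraries on the second principal component (4.40% of the variance), at 22.3 against -11.2 and -8.51, and several results below are given with and without it. Of 9 listed muscle markers, 6 had a row and 5 were tested, of which 4 rose. The summed level of the 6 was 149 to 185 CPM in WT and 384 to 456 CPM in Nono-KO. Smooth muscle markers rose in 5 of 6 cases, from 6636 to 7491 CPM in WT to 14591 to 15673 CPM in Nono-KO. Acta2 made up most of that sum, at 5311 ± 419 CPM in WT and 11595 ± 575 CPM in Nono-KO. Fibroblast markers fell in 3 of 5 cases and rose in 1, with 37362 to 45205 CPM in WT and 28839 to 33960 CPM in Nono-KO. Beside these marker counts, 34.2% of all tested genes rose and 38.1% fell. Of the 11 cardiomyocyte markers only 4 were tested, of which 2 rose (33.4 to 110 CPM in WT, 156 to 180 CPM in Nono-KO). Those that rose were Nkx2-5, from 20.9 to 40.6 CPM, and Actn2, from 0.159 to 1.15 CPM. Tnnt2 was at 13.4, 78.0 and 83.0 CPM in WT and 111, 135 and 137 CPM in Nono-KO. It did not pass (edgeR adjusted p = 0.180), although every Nono-KO library lay above every WT library. Tnnt2 made up most of the summed level in each library except WT replicate 1, where it was far lower. The other 8, among them Myh6, Myl2 and Ryr2, were below 1 CPM on average in both groups. Endothelial markers summed to 4.45 CPM or less in every library and macrophage markers to 28.2 to 44.8 CPM, with 1 of 1 and 1 of 3 tested genes falling. The part of these shifts in the results below was not tested, and in bulk RNA fewer cells of a type and less RNA per cell cannot be told apart.

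Nrf2, the product of Nfe2l2, is a transcription factor that the adaptor Keap1 holds in the cytoplasm and hands to a Cul3 ubiquitin ligase for degradation. Oxidants and electrophiles modify Keap1, and Nrf2 then enters the nucleus, pairs with small Maf proteins and binds antioxidant response elements in genes of glutathione synthesis, conjugation, thioredoxin recycling, quinone reduction and iron storage. Glutathione is made by glutamate-cysteine ligase and glutathione synthetase, is spent by peroxidases and transferases and is restored by glutathione reductase. Ferritin keeps iron away from peroxide, with which it would form radicals, and heart muscle depends on these systems because it respires at a high rate.

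The core of the antioxidant response element, searched as TGACNNNGC on both strands in RefSeq windows from 250 bases before to 50 bases after a gene's start (build GRCr8, another build than that of the counts), was found in 13 of the 38 oxidant defence genes with a window, or 34.2%. Among all 33469 windows it was found in 12.1%. That share counts windows, whether or not their gene was tested here. The 34.2% counts genes, of which 2 had 2 or more windows. In 9 genes a match lay wholly before the start. Of these, Gstm5, which did not pass, Mt1, which was not tested, and Mt2A, without a row, are not shown. The matches of the other 6 are shown, from genes that rose, fell or did not pass in Nono-KO cells. They run 5′ to 3′ along the gene's own strand, capitals mark the core or its reverse complement, and the start of the match lies 35 to 231 bases before the gene's start.
Gstp1, chr1:210769742-210769782, minus strand, rose: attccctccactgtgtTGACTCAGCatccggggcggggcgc
Gstz1, chr6:112525359-112525399, plus strand, rose: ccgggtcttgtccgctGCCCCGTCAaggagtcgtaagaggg
Sod2, chr1:50050179-50050219, minus strand, rose: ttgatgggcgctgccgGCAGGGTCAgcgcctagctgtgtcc
Gclm, chr2:213031947-213031987, plus strand, did not pass: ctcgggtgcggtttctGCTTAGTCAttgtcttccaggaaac
Txnrd1, chr7:22755958-22755998, minus strand, fell: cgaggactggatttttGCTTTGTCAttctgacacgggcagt
Prdx1, chr5:135383755-135383795, plus strand, fell: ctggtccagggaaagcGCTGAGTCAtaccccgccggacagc

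In Gstp1, Prdx1 and Mt2A the core overlapped a match to the AP-1 site (TGACTCA or TGAGTCA), an overlap seen in 0.415% of all windows. Of the 11 tested genes with the core, 5 rose, 3 fell and 3 did not pass the test. Among the 23 tested genes with a window and no core, 16 rose, 4 fell and 3 did not pass. A match is a run of letters and not a measured binding site, and the windows hold no distal elements. Both ferritin genes, Hmox1, Sod3, Gsr, Gstt1, Gstt2, Mgst2, Gpx8 and Prdx6 had no window in the table.

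Transcripts of oxidant defence were mostly higher in Nono-KO cells. In this text a gene rose or fell when its Benjamini-Hochberg adjusted p from edgeR's quasi-likelihood test was under 0.05. By that rule 28 of the 44 tested genes rose (63.6%), 8 fell (18.2%) and 8 did not pass. Across all 12028 tested genes 34.2% rose and 38.1% fell. The median log2 fold change, Nono-KO relative to WT, was 0.49 for the 44 genes and -0.05 for all tested genes, whose quartiles were -0.78 and 0.54. At the thresholds of the study for differentially expressed genes, an adjusted p under 0.01 with an absolute log2 fold change over 1, 11 of the 44 were higher and 3 lower, against 10.8% and 18.7% of all tested genes. Nono-KO and WT libraries did not overlap in 37 of the 44 (28 above and 9 below), where 75.1% of all tested genes did not overlap. The 8 genes that fell were Nfe2l2, Gclc, Gss, Gpx8, Txnrd1, Prdx1, Cat and Abcc1. Together the 46 genes took 0.912% to 0.935% of the counts of a WT library and 1.40% to 1.48% of those of a Nono-KO library. Without WT replicate 1, 27 rose and 11 fell, the added falls being Gstm5, Hmox1 and Abcc4.

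**Figure D1:**
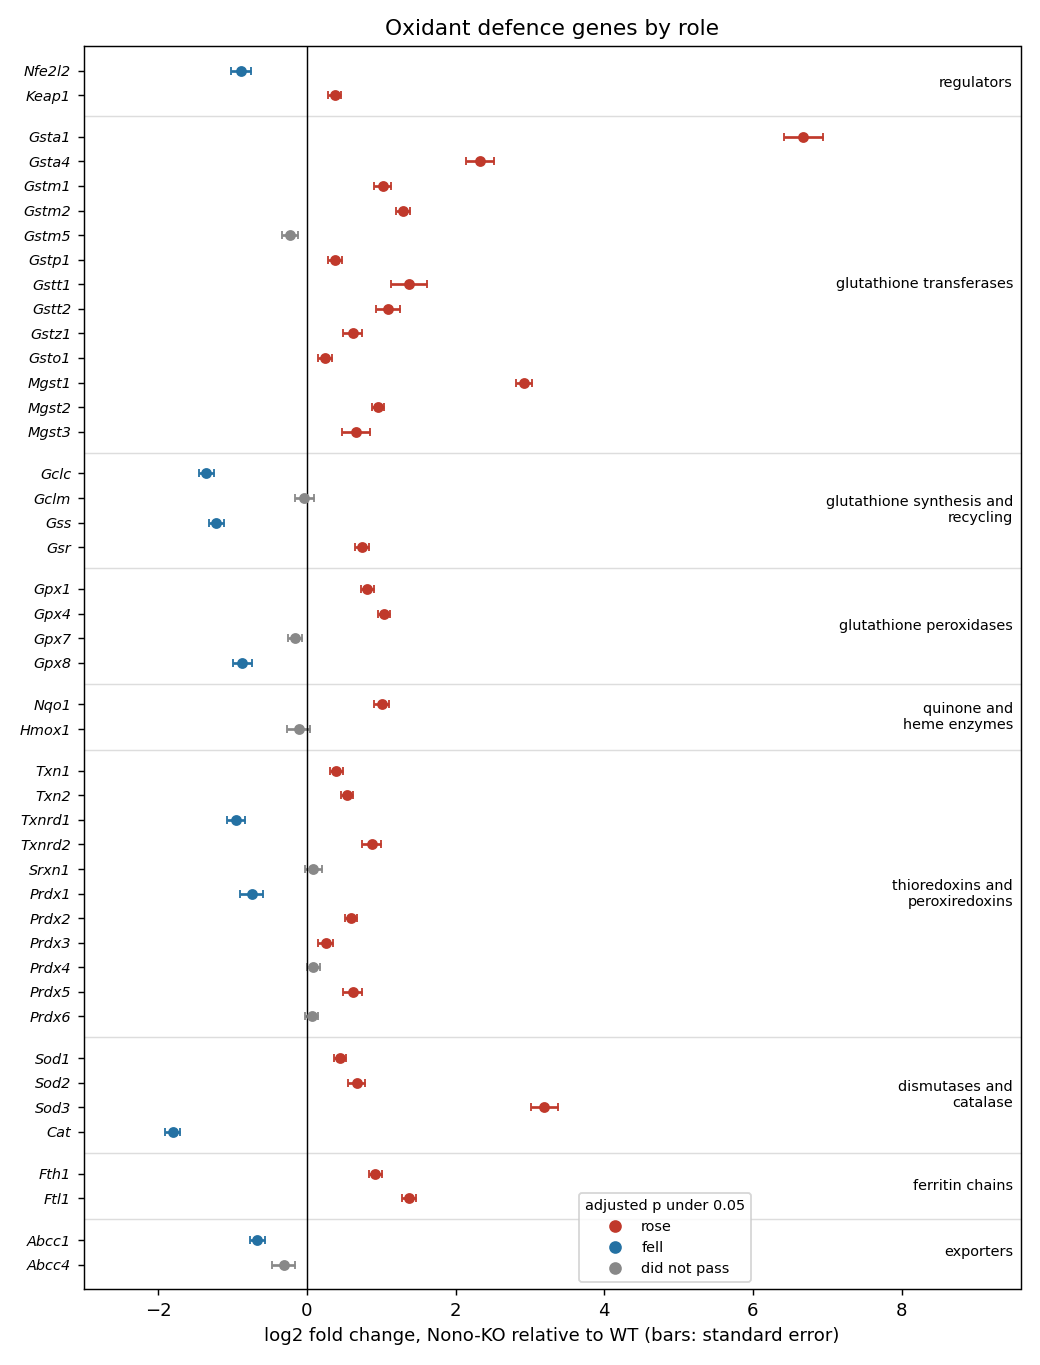
Log2 fold change of the 44 tested oxidant defence genes, Nono-KO relative to WT, grouped by role (x axis: log2 fold change, bars: standard error, 3 libraries per group). Red genes rose, blue genes fell and grey genes did not pass an adjusted p of 0.05. Gsta1 lies farthest to the right at 6.68 and Cat farthest to the left at -1.81.

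The messages of the Nrf2 switch moved in opposite directions. Nfe2l2 had 622, 803 and 670 counts in WT and 341, 328 and 418 counts in Nono-KO. Every Nono-KO library lay below every WT library, and mean expression fell from 37.1 ± 6.00 to 20.1 ± 1.94 CPM (log2 fold change -0.88, standard error 0.13, edgeR adjusted p = 0.000101). Keap1, its inhibitor, had 976, 914 and 914 counts in WT and 1169, 1166 and 1117 counts in Nono-KO. It rose without overlap between groups, by a log2 fold change of 0.38 (standard error 0.09, edgeR adjusted p = 0.00244). Within a library, the ratio of Nfe2l2 to Keap1 counts was 0.637, 0.879 and 0.733 in WT and 0.292, 0.281 and 0.374 in Nono-KO, a difference of -1.25 on the log2 scale. For this and the other 3 ratios described here, the exact two-sided permutation test of 3 against 3 libraries gave p = 0.1 (adjusted over the 4 ratios 0.1), the smallest value that this design allows.

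Glutathione transferases, which attach glutathione to electrophiles, rose in 12 of 13 tested cases, where 34.2% of all tested genes rose. Their median log2 fold change was 1.02. None fell under the main scaling, while Gstm5 fell with total-count scaling (edgeR adjusted p = 0.0431). Summed over the family, expression was 915 to 1001 CPM in WT and 1378 to 1515 CPM in Nono-KO. The largest change was that of Gsta1, of the cytosolic alpha class. Among alpha class genes outside the listed symbols, Gsta5 rose by 2.73 and Gsta6 did not pass (0.38, edgeR adjusted p = 0.370). Gsta2 and Gsta3 had too few counts to enter the test. Gsta1, an alpha class enzyme known for conjugation and peroxidase activity, had 2, 6 and 3 counts in WT and 376, 333 and 397 counts in Nono-KO. It was close to undetected in every WT library and plainly present in every Nono-KO library. The ratio of its summed counts, scaled as for CPM, was 106 (exact 95% interval 58.9 to 213, covering counting error only). Its fitted log2 fold change of 6.68 (standard error 0.26, edgeR adjusted p = 8.19e-09) depends on the prior count. Gsta4, which prefers the lipid peroxidation product hydroxynonenal, had 37, 47 and 52 counts in WT and 196, 228 and 232 counts in Nono-KO. The groups were far apart, and Gsta4 rose by a log2 fold change of 2.33 (standard error 0.19, edgeR adjusted p = 8.94e-07).

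In the mu class, Gstm2 had 1522, 1625 and 1696 counts in WT and 3677, 3716 and 3901 counts in Nono-KO. Libraries of one group agreed closely, and Gstm2 rose from 85.7 ± 9.38 to 209 ± 4.83 CPM (log2 fold change 1.29, standard error 0.09, edgeR adjusted p = 4.60e-07). Gstm1, its neighbour in the genome, had 595, 568 and 604 counts in WT and 1130, 1252 and 1016 counts in Nono-KO. It rose by a log2 fold change of 1.02 (standard error 0.11, edgeR adjusted p = 8.78e-06), again without overlap. Gstm5 behaved otherwise, with means of 39.1 ± 5.26 (WT) and 33.4 ± 0.95 CPM (Nono-KO, log2 fold change -0.23, edgeR adjusted p = 0.0821), and without WT replicate 1 it fell by 0.33 (edgeR adjusted p = 0.00719). The genes of one class resemble each other in sequence, and no source used here gives how reads shared between copies were counted, so the split between Gsta1, Gstm1, Gstm2 and their neighbours is uncertain. Gstm4, the other neighbour of Gstm1, rose by 0.51 and was chosen for naming after its values were seen.

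Theta class enzymes had few counts and rose. Gstt1 had 48, 48 and 25 counts in WT and 90, 113 and 94 counts in Nono-KO, a rise of 1.37 on the log2 scale (standard error 0.24, edgeR adjusted p = 0.000308). Gstt2 had 102, 78 and 74 counts in WT and 172, 162 and 177 counts in Nono-KO, a rise of 1.09 on the log2 scale (standard error 0.16, edgeR adjusted p = 8.76e-05). For both genes the lowest Nono-KO library exceeded the highest WT library. Gstp1, the pi class enzyme and the transferase with the most reads, had 11558, 9300 and 9958 counts in WT and 12591, 13261 and 12070 counts in Nono-KO. Its rise was smaller, at a log2 fold change of 0.38 (standard error 0.09, edgeR adjusted p = 0.00241), and on the CPM scale the groups did not overlap. Gstz1, which also breaks down tyrosine, rose by 0.62. Gsto1, an omega class enzyme that reduces thiols, rose by 0.24, but its adjusted p of 0.0261 lost the call in 7 of 12 alternatives and reached at most 0.116.

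The membrane-bound transferases rose as well. Mgst1, an enzyme of the endoplasmic reticulum and the outer mitochondrial membrane, had 154, 155 and 138 counts in WT and 970, 1067 and 1185 counts in Nono-KO. Mean expression was 7.88 ± 0.36 CPM in WT and 59.6 ± 3.01 CPM in Nono-KO, a 7.57-fold difference of means far beyond the spread between libraries (log2 fold change 2.92, standard error 0.11, edgeR adjusted p = 5.46e-09). Mgst2 rose by 0.96 and Mgst3, which takes part in eicosanoid metabolism, by 0.66. For Mgst3 the WT libraries were uneven, with 1118 counts in WT replicate 1 against 629 and 538. Its edgeR adjusted p of 0.00994 became 0.0595 without WT replicate 2 and 0.0671 without Nono-KO replicate 2. Without WT replicate 1 it became 8.45e-07, so the high count of that library weakened the call.

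Of the 4 genes of glutathione synthesis and recycling, 2 fell, 1 rose and 1 did not pass, with a median log2 fold change of -0.62, where 38.1% of all tested genes fell. Gclc, the catalytic subunit of glutamate-cysteine ligase and the rate-limiting enzyme of the pathway, had 1048, 1180 and 1045 counts in WT and 393, 376 and 453 counts in Nono-KO. It fell from 57.8 ± 5.49 to 22.6 ± 1.56 CPM, with no overlap (log2 fold change -1.35, standard error 0.11, edgeR adjusted p = 6.82e-07). Gss, glutathione synthetase, which adds glycine in the last step, had 2445, 2404 and 2302 counts in WT and 894, 1100 and 930 counts in Nono-KO. All Nono-KO libraries were below all WT libraries, and Gss fell from 126 ± 3.86 to 54.3 ± 6.23 CPM (log2 fold change -1.22, standard error 0.10, edgeR adjusted p = 8.48e-07). Gclm, the modifier subunit that makes the ligase more efficient, averaged 11.8 ± 0.38 (WT) and 11.5 ± 1.08 CPM (Nono-KO, log2 fold change -0.03, standard error 0.13, edgeR adjusted p = 0.832), and the sign changed in some alternatives. The ratio of Gclm to Gclc counts was accordingly 0.219, 0.193 and 0.202 in WT and 0.478, 0.516 and 0.532 in Nono-KO, higher by 1.31 on the log2 scale. Gsr, the reductase that restores glutathione from its oxidised form, rose by 0.75 (standard error 0.09, edgeR adjusted p = 2.38e-05).

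Among glutathione peroxidases, the widely expressed selenoenzymes rose and a member of the secretory pathway fell. Gpx1, the cytosolic enzyme that reduces hydrogen peroxide, had 8731, 9388 and 9090 counts in WT and 14931, 15894 and 14714 counts in Nono-KO. Gpx4, which reduces lipid hydroperoxides in membranes and protects cells from ferroptosis, had 6731, 6659 and 6434 counts in WT and 13008, 13402 and 12195 counts in Nono-KO. Neither gene overlapped between groups. The log2 fold changes were 0.81 for Gpx1 (standard error 0.09, edgeR adjusted p = 8.26e-06) and 1.04 for Gpx4 (standard error 0.09, edgeR adjusted p = 1.09e-06). Gpx8, a peroxidase of the endoplasmic reticulum, fell by 0.87 on the log2 scale (standard error 0.13, edgeR adjusted p = 0.000105). Gpx7, of the same compartment, was lower in each Nono-KO library than in each WT library on the CPM scale but did not pass (log2 fold change -0.16, edgeR adjusted p = 0.147). The secreted enzyme Gpx3 had 3, 1 and 3 counts in WT and 6, 9 and 3 counts in Nono-KO, too few to enter the test.

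**Figure D2:**
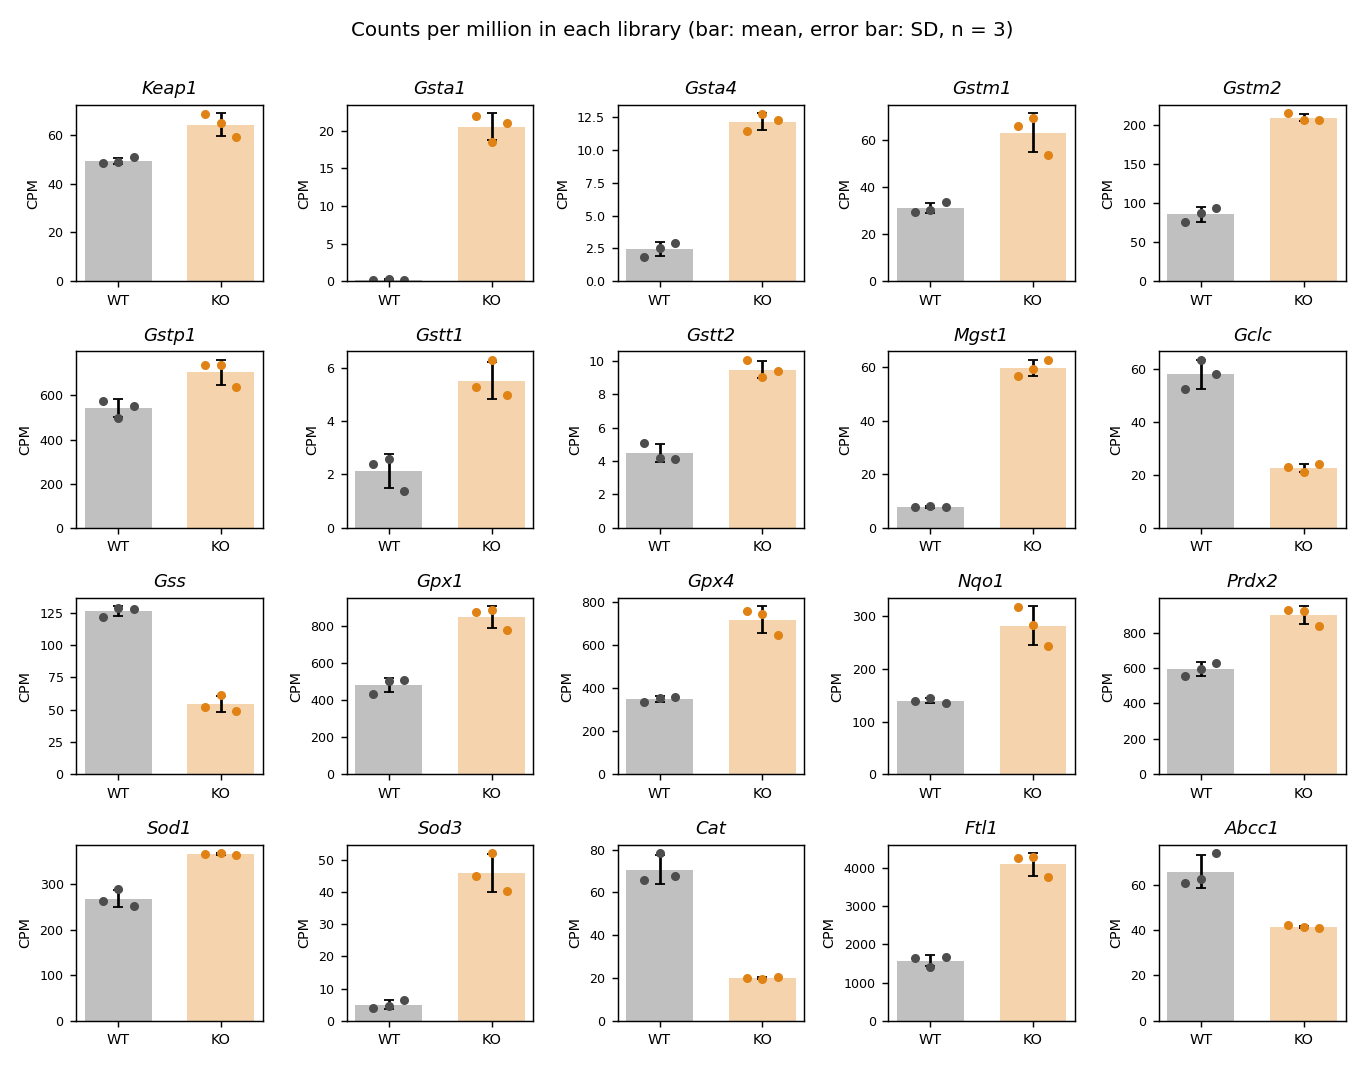
CPM (scaled counts) in each library for 20 oxidant defence genes, 1 panel per gene with its own y axis from 0 (grey: WT, orange: Nono-KO, points: libraries, bars: mean, error bars: SD, n = 3). Panels hold genes that passed with an absolute log2 fold change of at least 1 and the gene of each role with the most reads, apart from Mt1. The WT and Nono-KO points are separate in every panel, which that choice favours, and 75.1% of all tested genes did not overlap. Gclc, Gss, Cat and Abcc1 are lower and the other 16 genes higher in Nono-KO cells. Nfe2l2, Gpx8, Txnrd1 and Prdx1, which also fell, are not shown.

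Nqo1, a quinone reductase used widely as a readout of Nrf2, had 2807, 2722 and 2418 counts in WT and 5429, 5081 and 4611 counts in Nono-KO. It was about 2.01 times as high in Nono-KO in mean CPM, without overlap (log2 fold change 1.01, standard error 0.10, edgeR adjusted p = 4.15e-06). Hmox1, heme oxygenase, was at 174 ± 42.9 CPM in WT and 161 ± 10.8 CPM in Nono-KO, and the groups overlapped (log2 fold change -0.11, standard error 0.15, edgeR adjusted p = 0.533). The sign turned without WT replicate 2, to a log2 fold change of 0.06 (edgeR adjusted p = 0.733), and without WT replicate 1 Hmox1 fell by 0.30 on the log2 scale (edgeR adjusted p = 0.0116).

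The thioredoxin and peroxiredoxin genes were divided. Of 11 tested, 6 rose, 2 fell and 3 did not pass, with a median log2 fold change of 0.25. The rising share over all tested genes was 34.2% and the falling share 38.1%. Prdx2, a cytosolic peroxiredoxin and the member with the most reads, had 11114, 11154 and 11321 counts in WT and 15909, 16573 and 15857 counts in Nono-KO. Libraries within a group differed little, and Prdx2 rose by a log2 fold change of 0.60 (standard error 0.08, edgeR adjusted p = 4.73e-05). Prdx1, its close relative, fell from 294 ± 53.6 to 176 ± 37.8 CPM (log2 fold change -0.74, standard error 0.16, edgeR adjusted p = 0.00139). Thioredoxin reductases split in the same manner. Txnrd1, the cytosolic enzyme, fell from 418 ± 81.5 to 216 ± 4.79 CPM (log2 fold change -0.95, standard error 0.13, edgeR adjusted p = 3.37e-05), and Txnrd2, the mitochondrial enzyme, rose from 32.1 ± 6.35 to 58.9 ± 3.88 CPM (log2 fold change 0.87, standard error 0.13, edgeR adjusted p = 8.42e-05). The ratio of Txnrd2 to Txnrd1 counts was 0.121, 0.0614 and 0.0613 in WT and 0.269, 0.298 and 0.252 in Nono-KO. WT replicate 1 lay above the other WT libraries in this ratio, and the difference was 1.82 on the log2 scale with it and 2.15 without it.

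The thioredoxins themselves rose, Txn1 of the cytosol by 0.40 and Txn2 of the mitochondrion by 0.54 on the log2 scale. Prdx5, found in mitochondria, peroxisomes and cytosol, rose by 0.62. Mitochondrial Prdx3 rose by 0.25, with an edgeR adjusted p of 0.0447 that lost the call in 7 of 12 alternatives, at 0.0630 without WT replicate 1 and at most 0.154. Prdx4 of the endoplasmic reticulum (0.09), Prdx6, which also has phospholipase activity (0.06), and Srxn1, the sulfiredoxin that repairs overoxidised peroxiredoxins (0.09), did not pass.

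**Figure D3:**
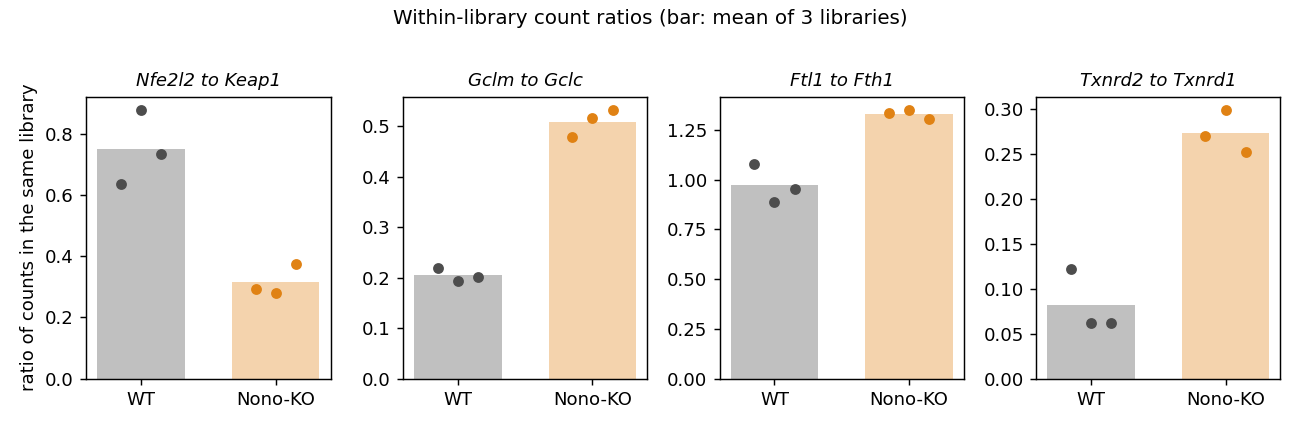
Ratios of the counts of paired genes within the same library (y axis: ratio of counts from 0, points: libraries, bars: mean of 3 libraries, grey: WT, orange: Nono-KO). Nfe2l2 to Keap1 is lower in the Nono-KO libraries, at 0.281 to 0.374, and the other 3 ratios are higher than in every WT library.

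All 3 superoxide dismutases rose and catalase fell, where 34.2% of all tested genes rose and 38.1% fell. Sod3, the secreted dismutase that binds the extracellular matrix, had 78, 87 and 117 counts in WT and 768, 935 and 762 counts in Nono-KO. Its expression went from 5.01 ± 1.35 to 45.8 ± 5.89 CPM, a 9.13-fold difference of means with wide separation (log2 fold change 3.19, standard error 0.18, edgeR adjusted p = 7.89e-08). Sod1, the cytosolic copper-zinc enzyme, had 5314, 5410 and 4549 counts in WT and 6256, 6631 and 6870 counts in Nono-KO. It rose by 0.45 (standard error 0.08, edgeR adjusted p = 0.000360), and Sod2, the mitochondrial manganese enzyme, by 0.67 (standard error 0.11, edgeR adjusted p = 0.000198). Catalase, the peroxisomal enzyme that splits the peroxide made by dismutases, had 1323, 1467 and 1214 counts in WT and 344, 355 and 390 counts in Nono-KO. Cat fell from 70.6 ± 6.84 to 20.2 ± 0.45 CPM, 3.50 times higher in WT (log2 fold change -1.81, standard error 0.10, edgeR adjusted p = 7.85e-08), the largest fall among the 44 tested genes.

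Both ferritin chains, which form the shell that stores iron, rose, where 34.2% of all tested genes rose. Ftl1, the light chain, had 33070, 26443 and 30043 counts in WT and 72732, 76843 and 70916 counts in Nono-KO. Each Nono-KO library was above each WT library by more than the spread within either group, and Ftl1 rose from 1577 ± 142 to 4095 ± 295 CPM (log2 fold change 1.38, standard error 0.09, edgeR adjusted p = 2.23e-07). Fth1, the heavy chain that oxidises iron, had 30700, 29698 and 31463 counts in WT and 54450, 56872 and 54228 counts in Nono-KO. It rose without overlap by 0.92 on the log2 scale (standard error 0.08, edgeR adjusted p = 1.78e-06). Ferritin messages took 0.310% to 0.337% of the counts of a WT library and 0.667% to 0.722% of those of a Nono-KO library. The ratio of Ftl1 to Fth1 counts was higher in each Nono-KO library than in each WT library, at 1.08, 0.890 and 0.955 in WT and 1.34, 1.35 and 1.31 in Nono-KO, with a difference of 0.46 on the log2 scale. A pair of further rows that may share reads with Ftl1, Ftl1l1 and LOC100360087, rose by 1.46 and 1.52 and were chosen after their values were seen.

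Of the exporters of glutathione conjugates, Abcc1 had 1218, 1172 and 1330 counts in WT and 719, 741 and 777 counts in Nono-KO. It fell without overlap, by 0.66 on the log2 scale (standard error 0.10, edgeR adjusted p = 7.70e-05). Abcc4, which also exports cyclic nucleotides, was at -0.31 (edgeR adjusted p = 0.0914), and without WT replicate 1 at -0.43 (edgeR adjusted p = 0.0125). Mt1, a metallothionein that binds zinc and copper, had 6, 0 and 2 counts in WT and 0 in every Nono-KO library. WT replicate 1 held 6 of its 8 counts, so no fold is given.

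A further 173 genes of neighbouring pathways, listed by function with earlier results of these data known, were read beside them. Of these, 155 had a row and 134 were tested, of which 55 rose, 41 fell and 38 did not pass, with a median log2 fold change of 0.10. Across all tested genes 34.2% rose and 38.1% fell. Pooled over lists that leaned in different directions, the shares of the 134 genes were nearer to these than those of the 44 oxidant defence genes. No test compared them. The upward lean was not particular to the 44, as other Nrf2 target genes counted 15 of 24 higher and 3 lower (median 0.57). Other thiol and oxidant defence genes counted 10 of 18 higher and 5 lower (median 0.74). Partners and regulators of Nrf2 leaned downward, with 12 of 21 lower, 5 higher and a median of -0.48. Bach1, the repressor that competes with Nrf2 for antioxidant response elements, had 846, 868 and 801 counts in WT and 170, 203 and 236 counts in Nono-KO. It fell without overlap from 44.4 ± 2.17 to 11.2 ± 1.28 CPM (log2 fold change -1.98, standard error 0.12, edgeR adjusted p = 1.10e-07). The acetyltransferase Ep300 (-1.84) and the chromatin remodeller Chd6 (-1.56) also fell. Sqstm1, the autophagy receptor that binds Keap1, had the most reads of the list and rose by 0.60. Cul3, the ligase scaffold, fell by 1.43 and was chosen for naming after its values were seen.

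Other known Nrf2 target genes leaned upward, with 15 of 24 higher, 3 lower (5 without WT replicate 1) and a median of 0.57. The shares over all tested genes were 34.2% higher and 38.1% lower. Ephx1, the microsomal epoxide hydrolase, had 155, 564 and 620 counts in WT and 2485, 2776 and 2621 counts in Nono-KO. WT replicate 1 was far below the other WT libraries, and the log2 fold change was 2.61 with it (standard error 0.53, edgeR adjusted p = 0.00692) and 2.17 without it (edgeR adjusted p = 4.09e-10). Slc48a1, a heme transporter of lysosomes, rose by 1.77, Osgin1, an oxidative stress induced growth inhibitor, by 1.68, and Taldo1 of the pentose phosphate pathway, which had the most reads, by 0.44. Of the 3 that fell, Slc7a11, the cystine importer that feeds glutathione synthesis, fell by 0.54 from 13.9 ± 2.61 to 9.55 ± 0.71 CPM (edgeR adjusted p = 0.00847). It was chosen after its values were seen, and the other two were Ugdh (-1.18) and Akr1b8 (-0.37).

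Other genes of glutathione metabolism were mixed, with 10 of 24 higher, 5 lower (3 without Nono-KO replicate 3) and a median of 0.24. For this and the next lists, 34.2% of all tested genes rose and 38.1% fell. Glrx, a glutaredoxin that removes glutathione from proteins, fell by 1.01, whereas Oplah (0.99) and Chac1 (0.96), enzymes of glutathione breakdown, and Slc25a39, the mitochondrial glutathione carrier (0.92), rose. Genes for other selenoproteins and for selenium handling counted 8 of 20 higher and 5 lower, with a median of 0.11. Selenoi, an enzyme of phosphatidylethanolamine synthesis, fell by 2.38 and Sepsecs, which completes selenocysteine on its transfer RNA, by 1.89, and Msrb1, a methionine sulfoxide reductase, rose by 1.55. Selenon, with the most reads, rose by 0.23, and lost the call in 6 of 12 alternatives. Other thiol and oxidant defence genes counted 10 of 18 higher and 5 lower, with a median of 0.74, led by Sesn2 (1.50), the mitochondrial methionine sulfoxide reductase Msrb2 (1.47) and the ferroptosis suppressor Aifm2 (1.40), and Ucp2, with the most reads, rose by 0.87.

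Iron, heme and metal genes outside ferritin leaned downward, with 9 of 17 lower, 2 higher (1 without WT replicate 3 or Nono-KO replicate 1, and without the filter) and a median of -0.46. Over all tested genes 38.1% were lower and 34.2% higher. Tfrc, the transferrin receptor that brings iron into the cell, had 169, 356 and 239 counts in WT and 39, 47 and 37 counts in Nono-KO. Even the lowest WT library was above all Nono-KO libraries, and Tfrc fell from 13.6 ± 5.32 to 2.29 ± 0.33 CPM (log2 fold change -2.57, standard error 0.29, edgeR adjusted p = 9.28e-06). Ncoa4, the receptor that takes ferritin to lysosomes, fell by 1.63 on the log2 scale, from 48.5 ± 5.56 to 15.6 ± 0.76 CPM. Ireb2, an iron regulatory protein that represses ferritin translation and steadies Tfrc messages, fell by 1.31. Pcbp1, an iron chaperone with the most reads, fell by 0.23, a call lost in 4 of 12 alternatives. Among oxidant sources 5 of 10 rose and 2 fell, with a median of 0.32, and 1 fell without WT replicate 2, Nono-KO replicate 1 or Nono-KO replicate 2 and with DESeq2 or RLE scaling. Cyba, the membrane subunit of NADPH oxidases, rose by 1.12 and had the most reads, while calls for Duox1 (0.46) and Maoa (-0.35) were lost in 3 and 6 of 12 alternatives. Log2 fold changes of the tested oxidant sources ran from -1.54 to 3.09, as changes were named only for genes past the threshold with at least 5 CPM.

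**Figure D4:**
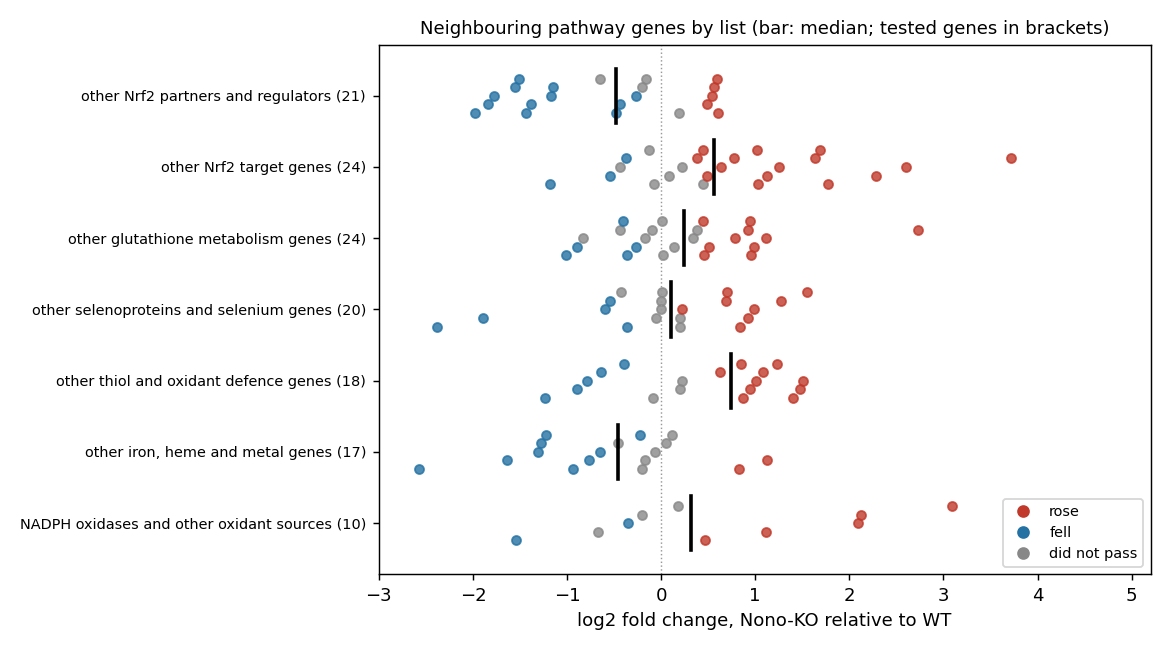
Log2 fold changes of the 134 tested genes of neighbouring pathways, by list (x axis: log2 fold change, Nono-KO relative to WT, points: genes, black bars: list medians, numbers of tested genes in brackets). Red genes rose, blue genes fell and grey genes did not pass. Medians run from -0.48 for Nrf2 partners and regulators to 0.74 for other thiol and oxidant defence genes.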

How the data were processed

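RNA was measured in 3 WT and 3 Nono-KO H9c2 libraries, made with a stranded mRNA kit per the labels. The authors deposited raw counts per gene symbol for each library, with no scaling and no pooling. The submitters' processing notes list mRatBN7.2 as the build and HTSeq, HISAT2 and Trimmomatic as tools, whereas the methods of the paper give Bowtie2 with Rn6. None of the sources used here gives tool versions, the annotation, the strand setting or the treatment of multiply mapped reads, so reads of paralogs or overlapping genes cannot be assigned with certainty.

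The counts were tested in R 4.3.3 with the quasi-likelihood test of edgeR 4.0.16 (robust fit, TMM scaling, filterByExpr, no covariates), with Benjamini-Hochberg adjustment over all 12028 genes tested. The filter left out 4291 of 16319 genes. The study used DESeq2, which was run here as an alternative (version 1.42.0). Standard errors were derived from the F statistic, as the size of the log2 fold change over the root of F. CPM were scaled by TMM. Both tools were tested on simulated counts in which only a small set of genes was changed. That share was far below the share of genes called here, so the simulation does not cover shifts as wide as these. Library totals of 17612958 to 19253858 counts leave genes with a few counts without a precise fold change. For Gsta1 the summed counts of the groups were also compared, with exact 95% limits for counting error alone.

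The genes and pathway lists were chosen with earlier results of these data known. Values per library are given for genes that passed with an absolute log2 fold change of at least 1 and a mean of 5 CPM or more in either group, for the gene of each role with the most reads, and for both genes of the Nfe2l2 and ferritin ratios. For each pathway list up to 3 genes with the largest change among those past the threshold, with at least 5 CPM, and the gene with the most reads are named. The alternatives were DESeq2, RLE or total-count scaling, no filter, a stricter filter (1 CPM in 3 libraries), a replicate block and leaving out each library. For the pathway lists they were added after the data were seen. A planned ratio of Mt2A to Mt1 had no Mt2A row, and protein features were not analysed here. Promoter windows were taken from a RefSeq table of GRCr8, which matched 38 of the 48 symbols.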

Additional observations from a re-analysis of the deposited data

How the results depend on the processing

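The same 8 genes fell in all 12 alternatives run and 26 to 28 of the 28 that rose kept their call. Counts of oxidant defence genes were 26 to 28 rising and 8 to 11 falling, the 11 coming without WT replicate 1. Under the study's thresholds the counts were 11 and 3, and 1294 and 2252 for all genes, with both a stricter adjusted p and an added fold limit. The median of the oxidant defence genes was 0.55 with RLE scaling and 0.43 with total counts, and 0.44 to 0.54 leaving out single libraries. That of all tested genes was 0.058 in DESeq2, which tested 14103 genes, 0.0032 with RLE scaling, -0.11 with total counts and 0.034 without the filter, so that the scaling moved it by less than 0.1 in either direction among the edgeR fits. Genes that had not passed changed sign in a few alternatives, with a log2 fold change of 0.018 for Gclm with RLE scaling. Leaving out single libraries, Gclm ranged from -0.080 to 0.021, Hmox1 from -0.30 to 0.055, Srxn1 from -0.029 to 0.17 and Prdx6 from -0.0031 to 0.11. The causes were not tested. Calls lost among the oxidant defence genes were those of Gsto1, Mgst3 and Prdx3, and Mt1 passed only without the filter (edgeR adjusted p = 0.0367, 0.152 in DESeq2).

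Library numbers are shared by the groups but did not pair the libraries, as deviations of same-numbered libraries correlated at 0.07, -0.21 and -0.24. With the number as a replicate block, 26 oxidant defence genes rose and 8 fell (3944 and 4443 of all genes). Gsto1 (edgeR adjusted p = 0.0594), Prdx3 (0.0734) and, in the pathway lists, Ephx1 (0.0526) were among the calls not passing. At these depths the filtered genes Gpx3 and Mt1 had too few counts for a precise fold change.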
